A study of Mus musculus with 24 samples.

Results

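The comparison described here set 4 liver libraries of mice labelled TSC1 KO against 4 of wild-type mice (WT), 8 of the 24 libraries of the series, chosen by the genotype in the labels. The TSC1 KO mice carry a hepatic deletion of Tsc1, and the WT mice carry none. Another group, Atg5 KO (hepatic deletion of Atg5, 4 libraries), is compared only where the text sets TSC1 KO against it directly. The remaining groups are labelled as lacking both of these genes, some of them with p62 or Nrf2 also removed, and are not compared here. All 24 libraries of the 6 groups entered the main fit, and so the gene filter, the scaling and the spread behind its p-values. Every mouse is labelled C57BL/6J and 2 months old. The labels name no promoter or Cre line for the deletion, no sex and no batch, and do not say which animals gave which library. The p-values set a difference between groups against the spread of libraries within groups, estimated over all 6 groups. That spread may therefore be technical. Polyadenylated RNA was counted per gene, with total counts of 11403975 to 12465339 in TSC1 KO libraries and 11283916 to 11675002 in WT libraries.

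TSC1 and TSC2 form the complex that switches off the small GTPase Rheb, the activator of the growth kinase complex mTORC1. On the lysosome, mTORC1 is held by Rag GTPases and phosphorylates the transcription factors TFEB and TFE3, which keeps these drivers of lysosomal and autophagy genes out of the nucleus. This arm depends on RagC or RagD and on folliculin. In hepatocytes the same kinase promotes protein synthesis. These cells also export most plasma proteins, which are folded by chaperones of the endoplasmic reticulum (ER) and, for acute-phase proteins, are induced by interleukin 6 and STAT3.

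Levels are CPM (counts scaled to a common library total) on TMM-scaled library totals, listed for replicates 1 to 4 in order. Means are given with the SD over the 4 libraries of a group. Changes are log2 fold changes (log2FC) of TSC1 KO over WT with their SE. Adjusted p-values are Benjamini-Hochberg values over all genes tested with edgeR's quasi-likelihood test. A gene is said to have risen, fallen or been called where that value was under 0.05. Of 15851 genes tested, 2598 were called (16.4%), 1393 of them higher in TSC1 KO livers (8.79%) and 1205 lower (7.6%). With libraries scaled by total counts alone the split was 1851 higher and 628 lower, and the median change of all genes was 0.14 on the log2 scale. Without WT replicate 2, 1724 genes were called, and lower calls numbered 647 to 768 without TSC1 KO replicate 2, WT replicate 1 or WT replicate 2. Changes over 2-fold in size were called for 781 higher and 380 lower genes, and changes over 32-fold for 37 higher and 10 lower genes. The hepatocyte list (26 genes) summed to 103577 to 117003 CPM in TSC1 KO libraries and 103720.0 to 127057 CPM in WT libraries.

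**Figure D1:**
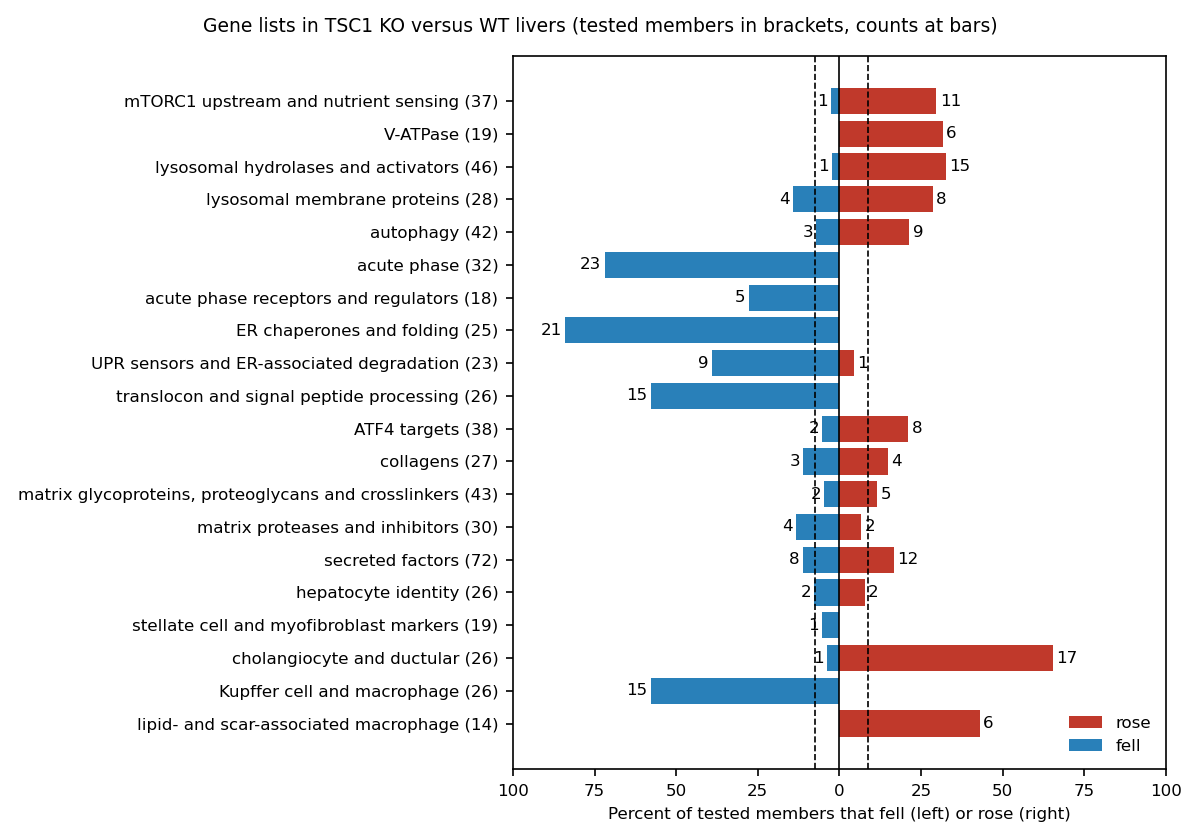
Percent of the tested members of each gene list that rose (bars to the right) or fell (bars to the left) in TSC1 KO versus WT livers, at an adjusted p under 0.05. Dashed lines mark the percent of all 15851 genes that did so (8.79% higher, 7.6% lower), and the lists farthest from them are the ER chaperone, acute-phase, translocon and Kupffer cell lists on the left and the cholangiocyte list on the right.

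Tsc1 itself (ENSMUSG00000026812, chr2:28641228-28691167 on the + strand, GRCm38) was not lower by a called margin in the libraries labelled TSC1 KO. Its level was 29.1, 33.8, 30.3 and 30.7 CPM in TSC1 KO livers, against 35.7, 34.9, 36.7 and 33.1 CPM in WT livers (log2FC -0.18 ± 0.19, adjusted p = 0.56). Each of the lowest 3 values belonged to a TSC1 KO library, but the groups overlapped. The counts cover the whole gene, no source used here gives the exons removed, and a hepatic deletion may leave the gene in other liver cells. These counts therefore do not check the deletion, and the directions given rest on the labels. Tsc2, the partner subunit, had 46.4 ± 2.59 CPM in TSC1 KO livers and 57.1 ± 1.69 CPM in WT livers and fell slightly (log2FC -0.30 ± 0.087, adjusted p = 0.022). Its call was lost in 5 of 8 fits without 1 library (adjusted p up to 0.081, without WT replicate 1) and with total counts alone. The mRNA of the kinase complex showed no called change in Mtor (log2FC -0.27) or its substrate-recruiting subunit Rptor (log2FC -0.26). Rheb mRNA did not pass either (log2FC -0.11).

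Several genes that report amino acids and lysosomal state to mTORC1 rose. Of 37 tested members of the list, 11 rose (29.7%, against 8.79% of all genes) and 1, Tsc2, fell. Rragd (ENSMUSG00000028278, chr4:32983037-33022180 on the + strand), which encodes the Rag GTPase that with folliculin presents TFEB to mTORC1, had 30.6, 53.3, 41.4 and 36.5 CPM in TSC1 KO livers, against 1.13, 3.12, 1.59 and 1.096 CPM in WT livers. The lowest TSC1 KO library was far above the highest WT library (log2FC 4.54 ± 0.40, adjusted p = 2.1e-07). Its paralog Rragc, which shares that role, rose as well, with 77.6 ± 4.71 CPM in TSC1 KO livers and 52.04 ± 5.13 CPM in WT livers (log2FC 0.58 ± 0.11, adjusted p = 0.0015).

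The folliculin complex, which lets RagC and RagD take up their active form, rose in each of its 3 members. Flcn had 57.6, 73.98, 93.5 and 92.3 CPM in TSC1 KO livers, against 31.4, 26.8, 41.7 and 58.5 CPM in WT livers, where replicate 4 lay just above the lowest TSC1 KO library (log2FC 1.004 ± 0.19, adjusted p = 0.0012). Its partners Fnip1 (log2FC 0.71 ± 0.16, adjusted p = 0.0041) and Fnip2 (log2FC 1.203 ± 0.33, adjusted p = 0.015) rose as well, and the call of Fnip2 was lost without TSC1 KO replicate 3, TSC1 KO replicate 4 or WT replicate 2 (adjusted p up to 0.06). The sestrins, stress-induced proteins that hold mTORC1 back when leucine is scarce, also rose in all 3 members. Sesn3 had 82.98, 98.6, 85.1 and 71.5 CPM in TSC1 KO livers, against 37.1, 47.5, 29.004 and 24.2 CPM in WT livers, with no overlap (log2FC 1.295 ± 0.18, adjusted p = 4e-05). Sesn2 had 19.998 ± 3.61 CPM in TSC1 KO livers and 8.004 ± 0.881 CPM in WT livers (log2FC 1.32 ± 0.20, adjusted p = 0.00013). Sesn1 rose less (log2FC 0.58 ± 0.17, adjusted p = 0.02), with its call lost without TSC1 KO replicate 1, TSC1 KO replicate 2 or WT replicate 3 (adjusted p up to 0.072). Among further brakes and scaffolds of the complex, the inhibitor Deptor rose (log2FC 0.47 ± 0.13, adjusted p = 0.019), with its call lost without TSC1 KO replicate 2 or WT replicate 2 (adjusted p up to 0.079). The lysosomal anchor subunit gene Lamtor3 rose too (log2FC 0.53 ± 0.13, adjusted p = 0.0064). Rhebl1, a little-expressed relative of Rheb, had 0.8698 to 1.75 CPM in TSC1 KO livers and 0.227 to 0.529 CPM in WT livers (log2FC 1.69 ± 0.42, adjusted p = 0.0078).

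None of the transcription factors that act on lysosomal genes was called higher at the RNA level. Tfeb had 12.6, 10.3, 11.9 and 13.3 CPM in TSC1 KO livers, against 8.85, 12.1, 10.5 and 15.7 CPM in WT livers, and the groups interleaved (log2FC 0.029 ± 0.16, adjusted p = 0.93). Tfe3 had 30.2 ± 1.95 CPM in TSC1 KO livers and 39.5 ± 4.33 CPM in WT livers (log2FC -0.39 ± 0.14, adjusted p = 0.051). All 4 TSC1 KO libraries lay below all 4 WT libraries for Tfe3, without passing the test. Mitf did not pass either (log2FC -0.24 ± 0.15, adjusted p = 0.28). Tfec, the least expressed of the family, was called lower (log2FC -1.05 ± 0.33, adjusted p = 0.034). Its call was lost in 4 of 8 fits without 1 library (adjusted p up to 0.12, without WT replicate 1) and with total counts alone. Where these proteins sit in the cell, and whether they carry phosphate, was not measured.

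**Figure D2:**
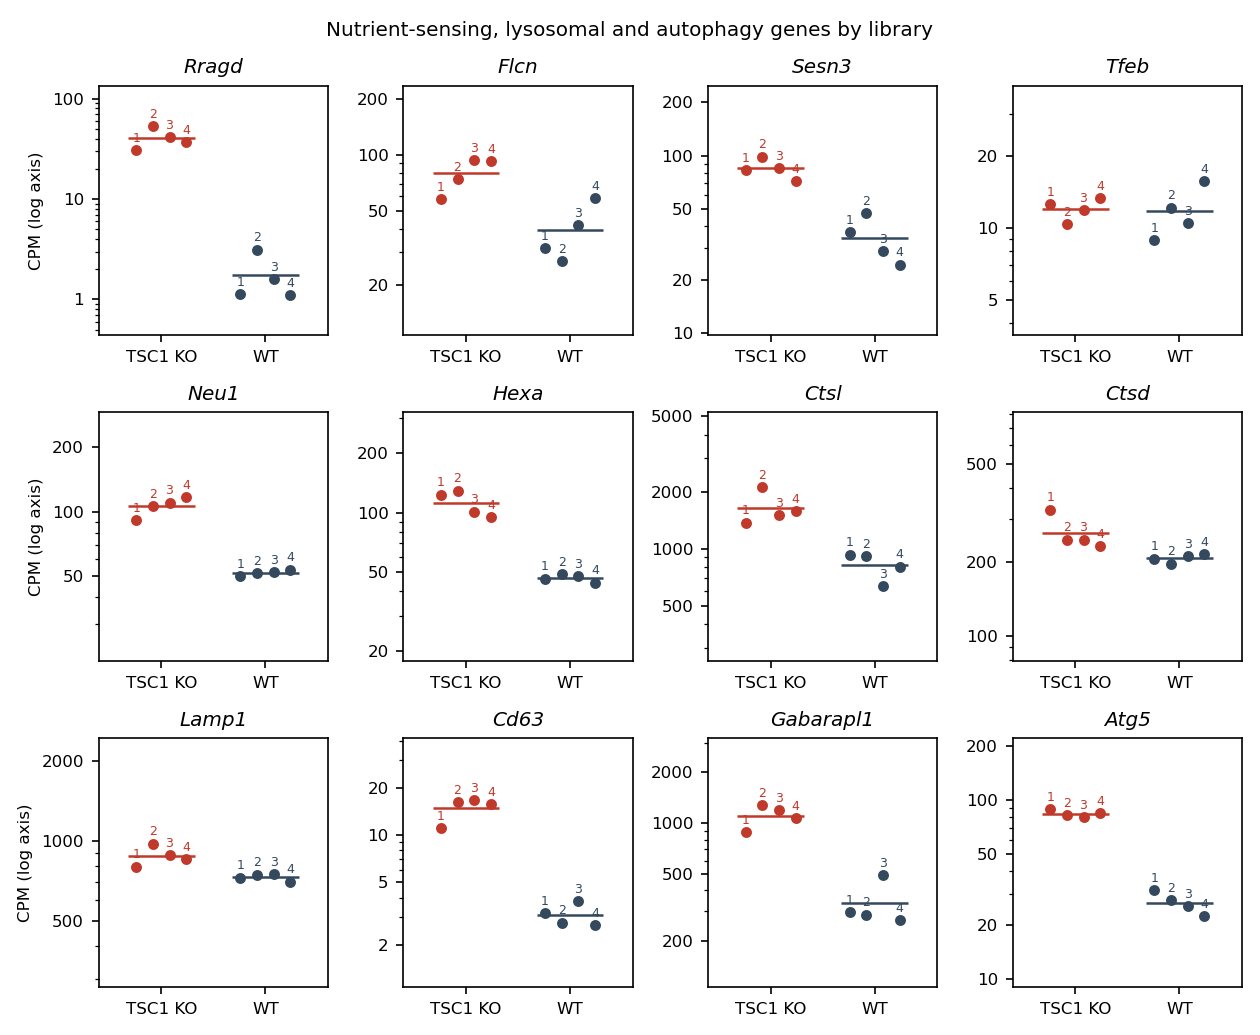
CPM per library (log axis) of Rragd, Flcn, Sesn3, Tfeb, Neu1, Hexa, Ctsl, Ctsd, Lamp1, Cd63, Gabarapl1 and Atg5, with TSC1 KO libraries left of WT libraries, each point a library with its replicate number and each bar a group mean. Rragd, Sesn3, Neu1, Hexa, Ctsl, Cd63, Gabarapl1 and Atg5 show no overlap of the groups, while the points of Tfeb interleave, Flcn overlaps at 1 library, and the groups of Ctsd and Lamp1 lie close together.

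MiT/TFE factors bind an E-box. The letters TCACGTG, which hold the general E-box core CACGTG, were found on either strand in the 250 bases before the start of 852 of 27025 RefSeq promoters (3.15%), and the core alone in 1634 (6.05%). Of 31 members of the nutrient-sensing list with a promoter in the table, 6 held TCACGTG (19.4%). The share was 8 of 38 hydrolase promoters (21.1%), 5 of 23 lysosomal membrane protein promoters (21.7%), 2 of 13 V-ATPase promoters (15.4%) and 3 of 34 autophagy promoters (8.82%). Among members that rose, TCACGTG was in 2 of 8 nutrient-sensing, 2 of 11 hydrolase and 1 of 8 lysosomal membrane protein promoters. For V-ATPase and autophagy members that rose it was in 1 of 5 and 1 of 9. Among members that fell, 1 of 4 lysosomal membrane protein promoters held it, and no promoter of the other lists did. Whether these shares differ from those of the whole lists was not tested. Among all 557 tested genes with these letters in that window, 68 rose (12.2%) and 25 fell (4.49%), beside 8.78% and 8.13% of the 11503 tested genes with a promoter in the table. The promoters of 3 genes that rose are printed because they carry the match close to the start. They are RefSeq sequences of build GRCm38.p6, read 5′ to 3′ in the direction of the gene, and the capitals mark TCACGTG or its reverse complement CACGTGA.
Rragc, chr4:123917183-123917432 on the + strand, match beginning 112 bases before the start: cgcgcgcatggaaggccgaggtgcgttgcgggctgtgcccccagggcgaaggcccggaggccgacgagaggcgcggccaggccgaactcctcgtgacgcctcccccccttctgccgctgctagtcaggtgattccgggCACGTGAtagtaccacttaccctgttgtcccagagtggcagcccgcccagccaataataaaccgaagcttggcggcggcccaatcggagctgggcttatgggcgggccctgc
Fnip1, chr11:54437929-54438178 on the + strand, match beginning 75 bases before the start: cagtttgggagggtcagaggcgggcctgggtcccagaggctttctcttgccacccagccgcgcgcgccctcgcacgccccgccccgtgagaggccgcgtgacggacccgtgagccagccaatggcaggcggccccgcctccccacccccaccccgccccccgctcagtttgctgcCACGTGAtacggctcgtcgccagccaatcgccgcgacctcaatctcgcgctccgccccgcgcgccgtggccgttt
Arsa, chr15:89477425-89477674 on the - strand, match beginning 17 bases before the start: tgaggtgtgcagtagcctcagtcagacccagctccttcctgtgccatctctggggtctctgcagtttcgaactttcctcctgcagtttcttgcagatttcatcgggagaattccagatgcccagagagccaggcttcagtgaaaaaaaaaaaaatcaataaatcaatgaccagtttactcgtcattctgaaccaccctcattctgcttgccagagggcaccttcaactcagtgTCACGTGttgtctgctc
A match describes these letters only and does not show that a factor binds there.

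Lysosomal enzymes rose in part. Hydrolases and their activators break down proteins, lipids and glycans in the acid lumen. Of 46 members 15 rose (32.6%, against 8.79% of all genes) and 1 fell (2.17%, against 7.6%), with a median change of 0.26. Neu1 (ENSMUSG00000007038, chr17:34931253-34935953 on the + strand), the lysosomal sialidase, had 91.8, 107, 111 and 117 CPM in TSC1 KO livers, against 50.1, 51.9, 52.3 and 53.8 CPM in WT livers. Both groups were tight and the lowest TSC1 KO library stood well clear of WT (log2FC 1.03 ± 0.10, adjusted p = 4e-07). Its protective partner cathepsin A, encoded by Ctsa, rose too (log2FC 0.73 ± 0.12, adjusted p = 0.00017).

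Hexa encodes a subunit of the beta-hexosaminidase that degrades GM2 ganglioside. It had 123, 129, 101 and 94.6 CPM in TSC1 KO livers, against 46.4, 49.1, 47.95 and 44.3 CPM in WT livers (log2FC 1.25 ± 0.16, adjusted p = 2.3e-05). The activator protein that lifts GM2 out of the membrane for this enzyme, encoded by Gm2a, rose as well (log2FC 0.80 ± 0.15, adjusted p = 0.00099). For both genes all TSC1 KO libraries lay above all WT libraries. Arsa, the sulfatase that degrades sulfatides and whose promoter is printed above, had 91.4, 90.7, 88.2 and 91.9 CPM in TSC1 KO livers, against 38.004, 41.9, 48.8 and 61.02 CPM in WT livers (log2FC 0.93 ± 0.18, adjusted p = 0.0013).

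The cathepsins, lysosomal proteases, did not move as one. Ctsl had 1374, 2103, 1503 and 1575 CPM in TSC1 KO livers, against 929, 914, 637 and 804 CPM in WT livers, with the highest value in TSC1 KO replicate 2 (log2FC 0.997 ± 0.18, adjusted p = 0.00068). Ctsz rose too (log2FC 1.01 ± 0.22, adjusted p = 0.003). So did Ctsb (log2FC 0.50 ± 0.14, adjusted p = 0.016), with its call lost without TSC1 KO replicate 2 or WT replicate 3 (adjusted p up to 0.065). Ctsd, the main aspartic protease, did not pass (log2FC 0.34 ± 0.14, adjusted p = 0.093), and neither did Psap, which encodes the saposin precursor (log2FC 0.27 ± 0.13, adjusted p = 0.16). Pla2g15, the lysosomal phospholipase, was the member that fell (log2FC -0.59 ± 0.19, adjusted p = 0.032), a call lost in 6 of 8 fits without 1 library (adjusted p up to 0.17, without WT replicate 1).

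The proton pump that acidifies the lysosome, the V-ATPase, had 6 of 19 subunits that rose (31.6%, against 8.79% of all genes) and none that fell. With total counts alone 11 rose. The 5 broadly expressed ones that rose, Atp6v1e1, Atp6v1d, Atp6ap2, Atp6v1b2 and Atp6v0b, changed by 0.58 to 0.69. Atp6v1e1 had 215, 201, 163 and 165 CPM in TSC1 KO livers, against 103, 113, 118 and 126 CPM in WT livers, without overlap (log2FC 0.69 ± 0.11, adjusted p = 0.00015). The call of Atp6v0b was lost without WT replicate 2 (adjusted p up to 0.054). Atp6v0e2, a variant membrane subunit of low level, changed most, with 2.73, 6.17, 6.38 and 3.35 CPM in TSC1 KO livers, against 0.794, 1.04, 0.635 and 0.731 CPM in WT livers (log2FC 2.54 ± 0.40, adjusted p = 0.00016).

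Of 28 genes of lysosomal membrane proteins 8 rose (28.6%, against 8.79% of all genes) and 4 fell (14.3%, against 7.6%). With total counts alone 9 rose and 2 fell, and without both WT replicates 3 and 4, 5 rose and 2 fell. The tetraspanin gene Cd63 had 11.04, 16.2, 16.6 and 15.8 CPM in TSC1 KO livers, against 3.18, 2.77, 3.81 and 2.68 CPM in WT livers (log2FC 2.25 ± 0.31, adjusted p = 5.4e-05). It is also a marker of lipid-associated macrophages, whose list is given further down. The cystine exporter gene Ctns (log2FC 0.74 ± 0.16, adjusted p = 0.0027) and the calcium channel gene Mcoln1 (log2FC 0.53 ± 0.11, adjusted p = 0.0018) rose. The amino acid exporter gene Slc36a1 fell, at 36.3 ± 2.11 CPM in TSC1 KO livers and 53.7 ± 11.6 CPM in WT livers (log2FC -0.57 ± 0.13, adjusted p = 0.0041), as did the transporter gene Mfsd8 (log2FC -0.78 ± 0.18, adjusted p = 0.0058). The abundant membrane glycoproteins encoded by Lamp1 (log2FC 0.27 ± 0.16, adjusted p = 0.27) and Lamp2 (log2FC 0.18 ± 0.13, adjusted p = 0.38) did not pass.

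Autophagy genes showed 9 increases among 42 members (21.4%, against 8.79% of all genes). Decreases numbered 3 (7.14%, near the 7.6% of all genes), and 1 without WT replicate 1 or without TSC1 KO replicate 1, 2 or 4. Gabarapl1, an ATG8 protein that coats autophagosomes, had 882, 1278, 1189 and 1069 CPM in TSC1 KO livers, against 296, 287, 489.8 and 266 CPM in WT livers, where replicate 3 was the highest (log2FC 1.72 ± 0.20, adjusted p = 6.3e-06). Atg5, which carries out ATG8 conjugation, rose with tight groups, at 88.6, 81.9, 79.8 and 84.5 CPM in TSC1 KO livers, against 31.4, 27.7, 25.5 and 22.5 CPM in WT livers (log2FC 1.64 ± 0.13, adjusted p = 1.5e-08). The ER-phagy receptor genes Retreg1 (log2FC 1.24 ± 0.23, adjusted p = 0.00079) and Tex264 (log2FC 0.52 ± 0.12, adjusted p = 0.0038) rose, and so did Plekhm1, which tethers autophagosomes to lysosomes (log2FC 0.73 ± 0.13, adjusted p = 0.00045). Of genes that start autophagosomes, Atg13 fell, at 54.4 ± 4.88 CPM in TSC1 KO livers and 89.9 ± 9.58 CPM in WT livers (log2FC -0.72 ± 0.16, adjusted p = 0.0037). The scramblase gene Atg9a fell too (log2FC -0.78 ± 0.24, adjusted p = 0.028), with its call lost in 5 of 8 fits without 1 library (adjusted p up to 0.089, without WT replicate 2). Sqstm1, which encodes the receptor p62 (log2FC 0.35 ± 0.25, adjusted p = 0.36), and Map1lc3b (log2FC 0.032 ± 0.17, adjusted p = 0.92) did not pass.

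Acute-phase genes fell in most members. Of 32 tested members 23 fell (71.9%, against 7.6% of all genes) and none rose, with a median change of -1.800. The spread lay in the WT group, where replicate 3 was low and replicate 4 high. The list summed to 36605 to 46694 CPM in TSC1 KO libraries and 59477 to 242481 CPM in WT libraries. Without WT replicate 4, 13 members fell and the median was -1.19. Without both WT replicates 3 and 4, a choice made after seeing the data, 17 fell and it was -1.51.

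Serum amyloid A genes, whose products travel on lipoproteins during inflammation, showed both the size and the spread. Saa2 (ENSMUSG00000057465, chr7:46751790-46754313 on the + strand) had 38.2, 29.3, 32.4 and 59.7 CPM in TSC1 KO livers, against 6399.9, 4489.9, 562 and 35333 CPM in WT livers. Even the lowest WT library, replicate 3, stood above every TSC1 KO library (log2FC -8.196 ± 1.903, adjusted p = 0.0066). Saa1 had 104, 66.7, 90.6 and 183 CPM in TSC1 KO livers, against 6374, 4702, 784 and 27696 CPM in WT livers, with the same order of WT libraries (log2FC -6.48 ± 1.59, adjusted p = 0.0095). Saa3 had 18.4, 10.8, 15.4 and 19.4 CPM in TSC1 KO livers, against 46.5, 15.2, 8.04 and 1035 CPM in WT livers, so that its change rested on WT replicate 4 (log2FC -4.11 ± 1.11, adjusted p = 0.016). Without that library the change of Saa3 was -0.49 with an adjusted p of 0.63, and its call was also lost without TSC1 KO replicate 2 (adjusted p = 0.053).

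Among carriers of iron and haem, Hp (haptoglobin) had 1729.6, 2002, 1601 and 1798 CPM in TSC1 KO livers, against 12294, 10421, 6177 and 32516 CPM in WT livers (log2FC -3.11 ± 0.48, adjusted p = 0.00015). Its lowest WT library stood above its highest TSC1 KO library. Lcn2, which binds bacterial siderophores, had 5.904, 9.67, 8.21 and 16.5 CPM in TSC1 KO livers, against 469, 289.9, 21.1 and 2844 CPM in WT livers, a gap that was narrow only at WT replicate 3 (log2FC -6.49 ± 1.45, adjusted p = 0.0052). Hpx (hemopexin) fell to 6345, 9412, 6713 and 7416 CPM in TSC1 KO livers, against 13769, 11631, 7063 and 27414 CPM in WT livers, and its groups overlapped (log2FC -1.003 ± 0.33, adjusted p = 0.037). Its call was lost in 5 of 8 fits without 1 library (adjusted p up to 0.29, without WT replicate 4), where the change was -0.48. The ferrireductase gene Steap4 fell without overlap (log2FC -3.51 ± 0.71, adjusted p = 0.0024). Hamp, which encodes the iron hormone hepcidin and responds to interleukin 6, did not pass (log2FC -0.31 ± 0.39, adjusted p = 0.63).

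Clotting and complement genes follow. C3, the hub of complement, had 3935, 6176, 4214 and 4436 CPM in TSC1 KO livers, against 14887, 11521, 8483 and 17459.9 CPM in WT livers (log2FC -1.48 ± 0.27, adjusted p = 0.00063). The fibrinogen chain genes Fga (log2FC -1.56 ± 0.41, adjusted p = 0.013), Fgb (log2FC -1.39 ± 0.34, adjusted p = 0.0084) and Fgg (log2FC -1.26 ± 0.36, adjusted p = 0.02) fell, all without overlap. The call of Fga was lost without WT replicate 4 (adjusted p up to 0.051), and that of Fgg in 4 of 8 fits without 1 library (adjusted p up to 0.084, without WT replicate 4). Crp, a pentraxin that is a weak acute-phase gene in mice, did not pass (log2FC -0.29 ± 0.25, adjusted p = 0.45), while the pentraxin gene Apcs fell (log2FC -2.49 ± 0.58, adjusted p = 0.0064), with a change of -1.53 without WT replicate 4. Of 18 receptors and regulators of the response, 5 fell (27.8%, against 7.6% of all genes) and none rose. Without TSC1 KO replicate 1, 2 or 3 or without WT replicate 1 or 4, 3 fell. The shared interleukin 6 receptor chain gene Il6st had 115, 125, 125 and 122 CPM in TSC1 KO livers, against 239, 213, 184 and 222 CPM in WT livers, without overlap (log2FC -0.82 ± 0.17, adjusted p = 0.0021). Il1r1, the interleukin 1 receptor gene, fell too (log2FC -2.21 ± 0.53, adjusted p = 0.0074), and so did Nfkbiz, a cofactor of NF-kB (log2FC -1.202 ± 0.23, adjusted p = 0.001). Stat3 (log2FC -0.83 ± 0.24, adjusted p = 0.022) and its feedback inhibitor gene Socs3 (log2FC -2.05 ± 0.62, adjusted p = 0.028) fell. The call of Stat3 was lost in 5 of 8 fits without 1 library (adjusted p up to 0.091, without WT replicate 4), and that of Socs3 in 6 of 8 fits without 1 library (adjusted p up to 0.083, without TSC1 KO replicate 2). Il6ra, the specific receptor chain, did not pass (log2FC -0.29 ± 0.31, adjusted p = 0.57).

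**Figure D3:**
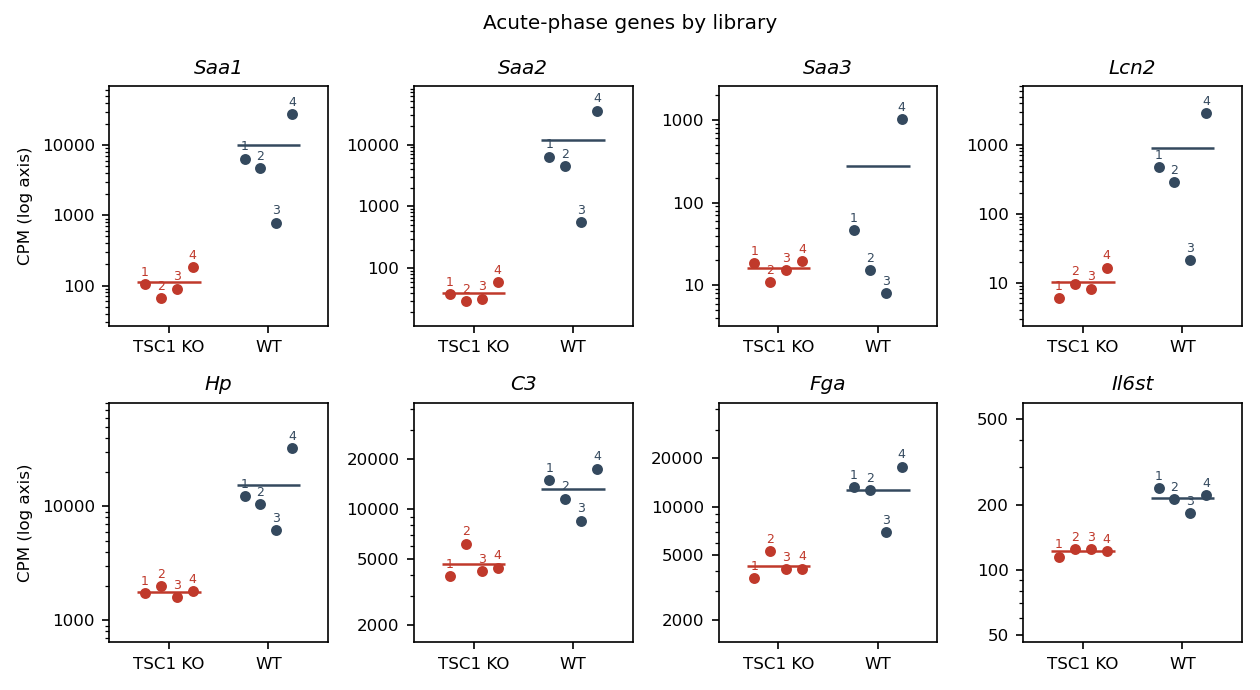
CPM per library (log axis) of Saa1, Saa2, Saa3, Lcn2, Hp, C3, Fga and Il6st, with TSC1 KO libraries left of WT libraries, each point a library with its replicate number. The WT points of Saa1, Saa2 and Lcn2 spread over more than an order of magnitude, with replicate 3 lowest and replicate 4 highest, while the TSC1 KO points cluster below them.

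ER chaperones fell in most members and with tighter groups. Of 25 members 21 fell (84.0%, against 7.6% of all genes) and none rose, with a median change of -0.73. Counted without WT replicate 4, 17 fell. Hspa5, which encodes BiP, the central chaperone of the ER lumen, had 1208, 910.3, 977 and 889 CPM in TSC1 KO livers, against 2696, 2668, 3299 and 1575 CPM in WT livers, where replicate 4 was the lowest (log2FC -1.36 ± 0.26, adjusted p = 0.0012). Its nucleotide exchange factor gene Hyou1 had 228, 183, 209 and 197 CPM in TSC1 KO livers, against 698, 677, 775 and 469.5 CPM in WT livers (log2FC -1.68 ± 0.28, adjusted p = 0.00027). Creld2, an ER stress-induced disulfide isomerase gene, changed most in the list, with 38.7, 28.9, 51.2 and 35.8 CPM in TSC1 KO livers, against 214, 183, 291 and 164 CPM in WT livers (log2FC -2.46 ± 0.31, adjusted p = 2e-05). For these 3 genes every TSC1 KO library lay below every WT library.

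Further members cover each step of folding. The BiP cofactor gene Sdf2l1 fell (log2FC -1.85 ± 0.25, adjusted p = 4.4e-05), as did Manf, a secreted ER stress protein (log2FC -1.44 ± 0.23, adjusted p = 0.00017). In the disulfide pathway the oxidase gene Ero1lb (log2FC -1.41 ± 0.21, adjusted p = 8.8e-05) and the isomerase gene Pdia4 (log2FC -1.36 ± 0.18, adjusted p = 2.4e-05) fell. The HSP90 of the ER, encoded by Hsp90b1, had 799 ± 116 CPM in TSC1 KO livers and 1552 ± 257 CPM in WT livers (log2FC -0.96 ± 0.20, adjusted p = 0.002). Among lectins for glycoproteins, Calr fell (log2FC -0.96 ± 0.19, adjusted p = 0.0014) and its membrane-bound relative Canx did not pass (log2FC -0.36 ± 0.15, adjusted p = 0.11).

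Sensors of the unfolded protein response and the degradation machinery fell in 9 of 23 members (39.1%, against 7.6% of all genes). In the same list 1 rose (4.35%, against 8.79%). Derl3 (ENSMUSG00000009092, chr10:75893413-75895941 on the + strand), which passes misfolded proteins out of the ER, had 1.203, 0.664, 0.8698 and 0.887 CPM in TSC1 KO livers, against 7.71, 3.23, 47.7 and 21.9 CPM in WT livers. TSC1 KO libraries were uniformly near 1 CPM and WT replicates 3 and 4 stood highest (log2FC -4.47 ± 0.62, adjusted p = 5.8e-05). Without those 2 libraries the change was -2.60. Syvn1, the ubiquitin ligase at the core of that machinery, had 76.4, 84.5, 68.8 and 80.1 CPM in TSC1 KO livers, against 240.4, 261, 359.7 and 152 CPM in WT livers (log2FC -1.71 ± 0.30, adjusted p = 0.00059). Its adaptor gene Sel1l fell too (log2FC -0.79 ± 0.16, adjusted p = 0.0015). Edem1, which trims mannose from misfolded glycoproteins, fell (log2FC -1.03 ± 0.17, adjusted p = 0.00027). Xbp1, whose spliced mRNA encodes a driver of these genes, had 229.7 ± 19.9 CPM in TSC1 KO livers and 448 ± 48.99 CPM in WT livers (log2FC -0.96 ± 0.24, adjusted p = 0.0088). Splicing is not visible in gene counts. Eif2ak3, which encodes the sensor kinase PERK, was the member that rose (log2FC 0.55 ± 0.17, adjusted p = 0.029), a call lost in 4 of 8 fits without 1 library (adjusted p up to 0.11, without TSC1 KO replicate 2).

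Entry into the ER showed the same direction. Of 26 genes of the translocon and signal peptide processing 15 fell (57.7%, against 7.6% of all genes) and none rose. Without WT replicate 4, 9 fell. Sec61a1, the channel gene, had 89.4, 95.99, 100.3 and 90.4 CPM in TSC1 KO livers, against 199, 225, 161 and 215 CPM in WT livers (log2FC -1.09 ± 0.18, adjusted p = 0.00023). The signal recognition particle receptor gene Srpr (log2FC -0.87 ± 0.16, adjusted p = 0.00064), the oligosaccharyltransferase gene Stt3a (log2FC -0.73 ± 0.10, adjusted p = 6.6e-05) and its partner gene Ddost (log2FC -0.62 ± 0.10, adjusted p = 0.00026) followed, each without overlap.

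The classical ER stress element, CCAAT (a site of NF-Y by itself) followed after 9 bases by CCACG, on either strand, was found in the same window of 33 of 27025 RefSeq promoters (0.122%). It was in 8 of 21 promoters of the ER chaperone list (38.1%), in 2 of 20 of the sensor and degradation list (10%) and in 0 of 21 of the translocon list. Of 20 tested genes that hold it, 11 fell (55.0%) and 0 rose, with a median change of -0.77. Of the 11503 tested genes with a promoter in the table, 8.13% fell and 8.78% rose. The genes that fell were Derl3, Acnat2, Creld2, Syvn1, Ero1lb, Hspa5, Calr, Hsp90b1, Alg12, Dnajc3 and Pdia6. Acnat2 and Alg12, in no list here, were named after their values were seen. The others are members of the ER lists already counted above, so this count is not independent of those lists. The call of Pdia6 was lost without TSC1 KO replicate 4 or WT replicate 4 (adjusted p up to 0.07). The promoters of 3 genes with large decreases are printed to show the element, from RefSeq on GRCm38.p6, 5′ to 3′ in the direction of the gene, with the blocks CCAAT and CCACG or their reverse complements in capitals.
Creld2, chr15:88819396-88819645 on the + strand, element beginning 126 bases before the start: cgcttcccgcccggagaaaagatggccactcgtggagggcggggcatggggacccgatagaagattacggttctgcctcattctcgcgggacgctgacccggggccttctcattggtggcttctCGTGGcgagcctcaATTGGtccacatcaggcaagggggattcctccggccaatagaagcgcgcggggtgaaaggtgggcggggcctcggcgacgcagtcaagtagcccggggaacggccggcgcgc
Derl3, chr10:75893148-75893397 on the + strand, element beginning 156 bases before the start: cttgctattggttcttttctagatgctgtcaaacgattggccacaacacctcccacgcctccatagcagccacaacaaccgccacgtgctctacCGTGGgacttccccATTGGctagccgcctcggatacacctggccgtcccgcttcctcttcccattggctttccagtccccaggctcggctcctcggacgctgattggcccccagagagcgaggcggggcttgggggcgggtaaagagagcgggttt
Syvn1, chr19:6046326-6046575 on the + strand, element beginning 44 bases before the start: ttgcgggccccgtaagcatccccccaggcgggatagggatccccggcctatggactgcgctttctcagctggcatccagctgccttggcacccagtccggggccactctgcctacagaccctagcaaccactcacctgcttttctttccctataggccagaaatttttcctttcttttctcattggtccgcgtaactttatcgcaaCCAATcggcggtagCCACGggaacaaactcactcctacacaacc
In Creld2 and Derl3 the element reads on the opposite strand, so the reverse complement of CCACG comes first, and in Syvn1 it reads in the direction of the gene.

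**Figure D4:**
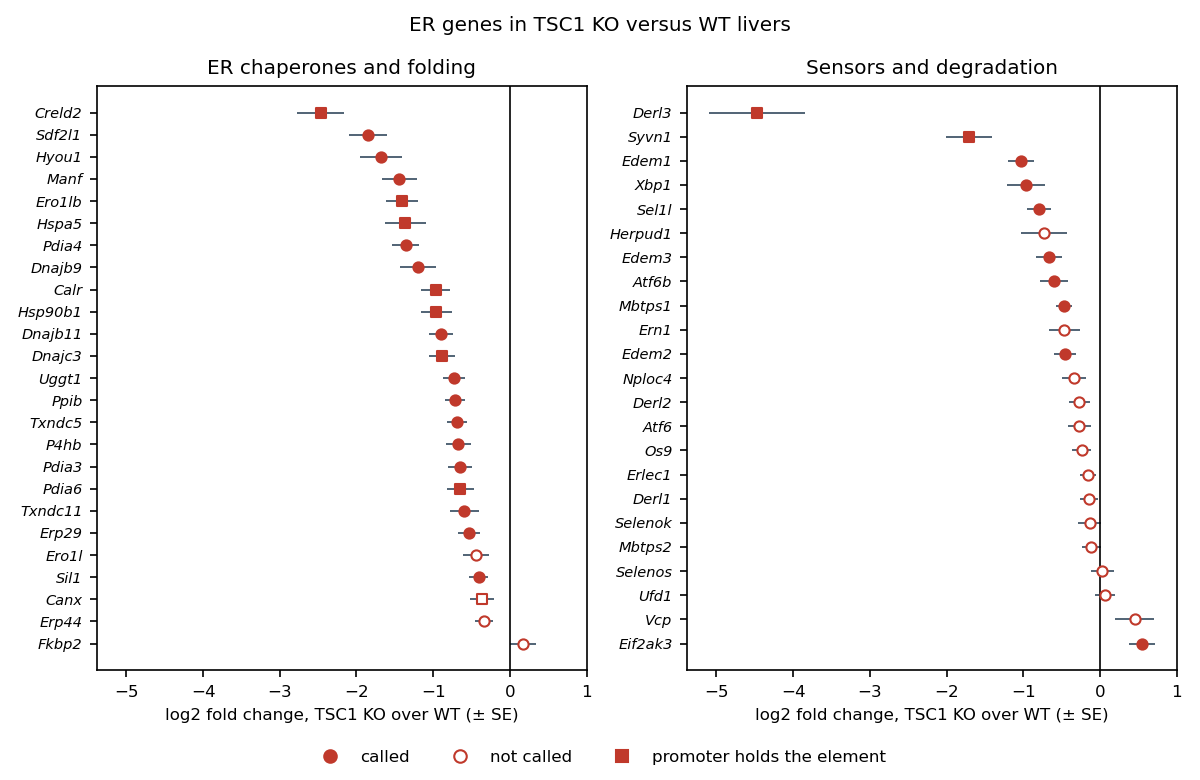
Log2 fold change of TSC1 KO over WT (points, with SE as bars) for each of the ER chaperone and of the sensor and degradation genes, ordered by size within each list. Filled points were called, open points were not, and squares mark genes whose promoter holds the ER stress element. Nearly all points lie left of 0, and the squares include Derl3, Creld2 and Syvn1 at the far left and the uncalled Canx.

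Targets of ATF4, the factor of the integrated stress response downstream of PERK and of mTORC1, rose in 8 of 38 members (21.1%, against 8.79% of all genes). The share that fell, 2 members (5.26%), was under the 7.6% of all genes, and 5 rose without TSC1 KO replicate 2, WT replicate 2 or WT replicate 3. Nupr1, a stress-induced chromatin protein, had 15.4, 31.8, 20.1 and 17.7 CPM in TSC1 KO livers, against 1.702, 1.502, 1.16 and 1.096 CPM in WT livers (log2FC 3.95 ± 0.43, adjusted p = 3.8e-06). Trib3, a pseudokinase that dampens insulin signalling and ATF4, had 19.5, 29.3, 15.6 and 21.3 CPM in TSC1 KO livers, against 2.496, 4.04, 3.49 and 4.63 CPM in WT livers (log2FC 2.55 ± 0.37, adjusted p = 0.0001). The lipoprotein receptor gene Vldlr rose as well (log2FC 2.85 ± 0.59, adjusted p = 0.0024), and none of these 3 genes had overlapping groups. Genes of serine synthesis, Phgdh (log2FC 2.31 ± 0.70, adjusted p = 0.027) and Psat1 (log2FC 1.38 ± 0.40, adjusted p = 0.022), rose at low levels. Their calls were lost, for Phgdh without TSC1 KO replicate 3, WT replicate 2 or WT replicate 3 (adjusted p up to 0.082) and for Psat1 in 4 of 8 fits without 1 library (adjusted p up to 0.099, without TSC1 KO replicate 2). Atf4 mRNA rose slightly (log2FC 0.51 ± 0.16, adjusted p = 0.033), a call lost in 4 of 8 fits without 1 library (adjusted p up to 0.16, without TSC1 KO replicate 1). The tRNA synthetase genes Wars (log2FC -0.81 ± 0.12, adjusted p = 0.00011) and Iars (log2FC -0.75 ± 0.15, adjusted p = 0.0018) fell. Asns, a textbook target, ranged from 6.99 to 79.2 CPM among TSC1 KO libraries and did not pass (log2FC 0.66 ± 0.59, adjusted p = 0.49). The pro-apoptotic target Ddit3 did not pass either (log2FC -0.24 ± 0.25, adjusted p = 0.54).

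Collagen genes showed 1 very large change and no called change in the main fibrillar genes. Of 27 members 4 rose (14.8%) and 3 fell (11.1%), beside 8.79% and 7.6% of all genes. Col5a2 (ENSMUSG00000026042, chr1:45374321-45503282 on the - strand), a minor fibrillar chain that limits fibril width, had 282, 672, 334 and 196 CPM in TSC1 KO livers, against 5.11, 3.58, 3.81 and 3.41 CPM in WT livers. TSC1 KO replicate 2 was the highest, and every TSC1 KO library exceeded WT many times over (log2FC 6.54 ± 0.51, adjusted p = 4.2e-08). Among the main fibrillar genes Col1a1 had 8.86, 15.8, 18.5 and 14.97 CPM in TSC1 KO livers, against 7.49, 6.24, 9.42 and 10.2 CPM in WT livers, which did not pass (log2FC 0.80 ± 0.35, adjusted p = 0.12). Col1a2 (log2FC 0.77 ± 0.34, adjusted p = 0.12) and Col3a1 (log2FC 0.79 ± 0.36, adjusted p = 0.14) did not pass either. Basement membrane chains of the kidney and lung type rose at low levels, namely Col4a5 (log2FC 2.15 ± 0.38, adjusted p = 0.00058), Col4a4 (log2FC 1.75 ± 0.47, adjusted p = 0.013) and Col4a3 (log2FC 1.35 ± 0.45, adjusted p = 0.041). The call of Col4a3 was lost in 7 of 8 fits without 1 library (adjusted p up to 0.12, without WT replicate 2). Col15a1, a basement membrane linker (log2FC -1.65 ± 0.42, adjusted p = 0.011), Col27a1 (log2FC -1.36 ± 0.30, adjusted p = 0.0034) and Col7a1 (log2FC -1.73 ± 0.54, adjusted p = 0.03) fell. The call of Col7a1 was lost in 6 of 8 fits without 1 library (adjusted p up to 0.09, without WT replicate 3) and with total counts alone.

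Stellate cells are the usual source of liver collagen, and of 19 tested markers of them 0 rose and 1 fell (5.26%, against 7.6% of all genes). Without WT replicate 4, 2 fell. Their list summed to 160.2 to 211 CPM in TSC1 KO libraries and 127 to 232 CPM in WT libraries, so the groups overlapped. The retinol-storing marker Lrat (log2FC -0.40 ± 0.34, adjusted p = 0.46), the intermediate filament marker Des (log2FC -0.38 ± 0.28, adjusted p = 0.38) and the myofibroblast actin gene Acta2 (log2FC 0.15 ± 0.62, adjusted p = 0.9) did not pass. Which cell made the Col5a2 mRNA was not tested.

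Of 43 matrix glycoproteins, proteoglycans and crosslinkers, 5 rose (11.6%) and 2 fell (4.65%), near the 8.79% and 7.6% of all genes. Without TSC1 KO replicate 3, WT replicate 1 or WT replicate 4, 3 rose. The laminin chain genes Lamb2 (log2FC 1.48 ± 0.32, adjusted p = 0.0032) and Lama5 (log2FC 1.39 ± 0.30, adjusted p = 0.0031), whose products build basement membranes, rose. Mfap4, an elastic fibre protein (log2FC 2.04 ± 0.61, adjusted p = 0.027), and Ccn2, a target of YAP and TGF-beta (log2FC 1.21 ± 0.38, adjusted p = 0.036), rose as well. Their calls were lost, for Mfap4 in 4 of 8 fits without 1 library (adjusted p up to 0.076, without TSC1 KO replicate 3) and for Ccn2 in 7 of 8 fits without 1 library (adjusted p up to 0.084, without TSC1 KO replicate 4). Both members that fell are plasma proteins made by hepatocytes. Fn1 (fibronectin) had 940.3, 1127, 1143 and 1207 CPM in TSC1 KO livers, against 2404, 2182, 1308 and 2565 CPM in WT livers, with WT replicate 3 again lowest of its group (log2FC -0.94 ± 0.22, adjusted p = 0.0058). Vtn (vitronectin) fell without overlap (log2FC -0.76 ± 0.20, adjusted p = 0.013), with its call lost without WT replicate 4 (adjusted p up to 0.072).

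Among 30 matrix proteases and inhibitors, 2 rose (6.67%) and 4 fell (13.3%), beside 8.79% and 7.6% of all genes. Without WT replicate 1, 1 rose and 2 fell, and 1 rose without TSC1 KO replicate 2 or 3 or WT replicate 2. Mmp7 (ENSMUSG00000018623, chr9:7692090-7699585 on the + strand), matrilysin, a protease of epithelia, had 21.4, 32.5, 50.4 and 38.3 CPM in TSC1 KO livers, against 0.113, 0.231, 0.212 and 0.487 CPM in WT livers. Its WT level was a few counts per library, and no TSC1 KO library came near it (log2FC 7.06 ± 1.08, adjusted p = 0.00021). Mmp11 rose at a low level (log2FC 1.51 ± 0.46, adjusted p = 0.027), a call lost in 4 of 8 fits without 1 library (adjusted p up to 0.092, without WT replicate 2). The serine protease inhibitor gene Serpine2 had 19.5, 17.1, 15.8 and 14.97 CPM in TSC1 KO livers, against 37.4, 50.8, 67.5 and 54.1 CPM in WT livers, and fell without overlap (log2FC -1.64 ± 0.27, adjusted p = 0.00027). Mmp19 fell as well (log2FC -0.81 ± 0.22, adjusted p = 0.013), with its call lost without WT replicate 1 or WT replicate 2 (adjusted p up to 0.054).

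Cholangiocytes, the cells of bile ducts, and ductular cells express several of these genes, and their markers moved in the same libraries. Of 26 tested markers 17 rose (65.4%, against 8.79% of all genes) and 1, Cd44, fell, with a median change of 2.56. The list summed to 715 to 1183 CPM in TSC1 KO libraries and 191 to 229.8 CPM in WT libraries. Spp1 made up the largest part in TSC1 KO libraries. The adhesion molecule gene Epcam had 12.5, 19.6, 23.001 and 14.2 CPM in TSC1 KO livers, against 1.02, 2.08, 1.7995 and 1.096 CPM in WT livers (log2FC 3.52 ± 0.41, adjusted p = 7.2e-06). The keratin genes Krt7 (log2FC 2.58 ± 0.37, adjusted p = 8.4e-05) and Krt19 (log2FC 2.401 ± 0.41, adjusted p = 0.00045) and the duct transcription factor gene Sox9 (log2FC 1.12 ± 0.27, adjusted p = 0.007) rose too. The water channel gene Aqp1 did not pass (log2FC -0.68 ± 0.33, adjusted p = 0.17). The call of Cd44 was lost without TSC1 KO replicate 1 or WT replicate 1 (adjusted p up to 0.066), and 2 markers fell without WT replicate 2. In whole liver, more or fewer cells of a type cannot be told apart from more or less RNA per cell. The part of these cells in the changes of Mmp7, the laminins and the basement membrane collagens was not tested.

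**Figure D5:**
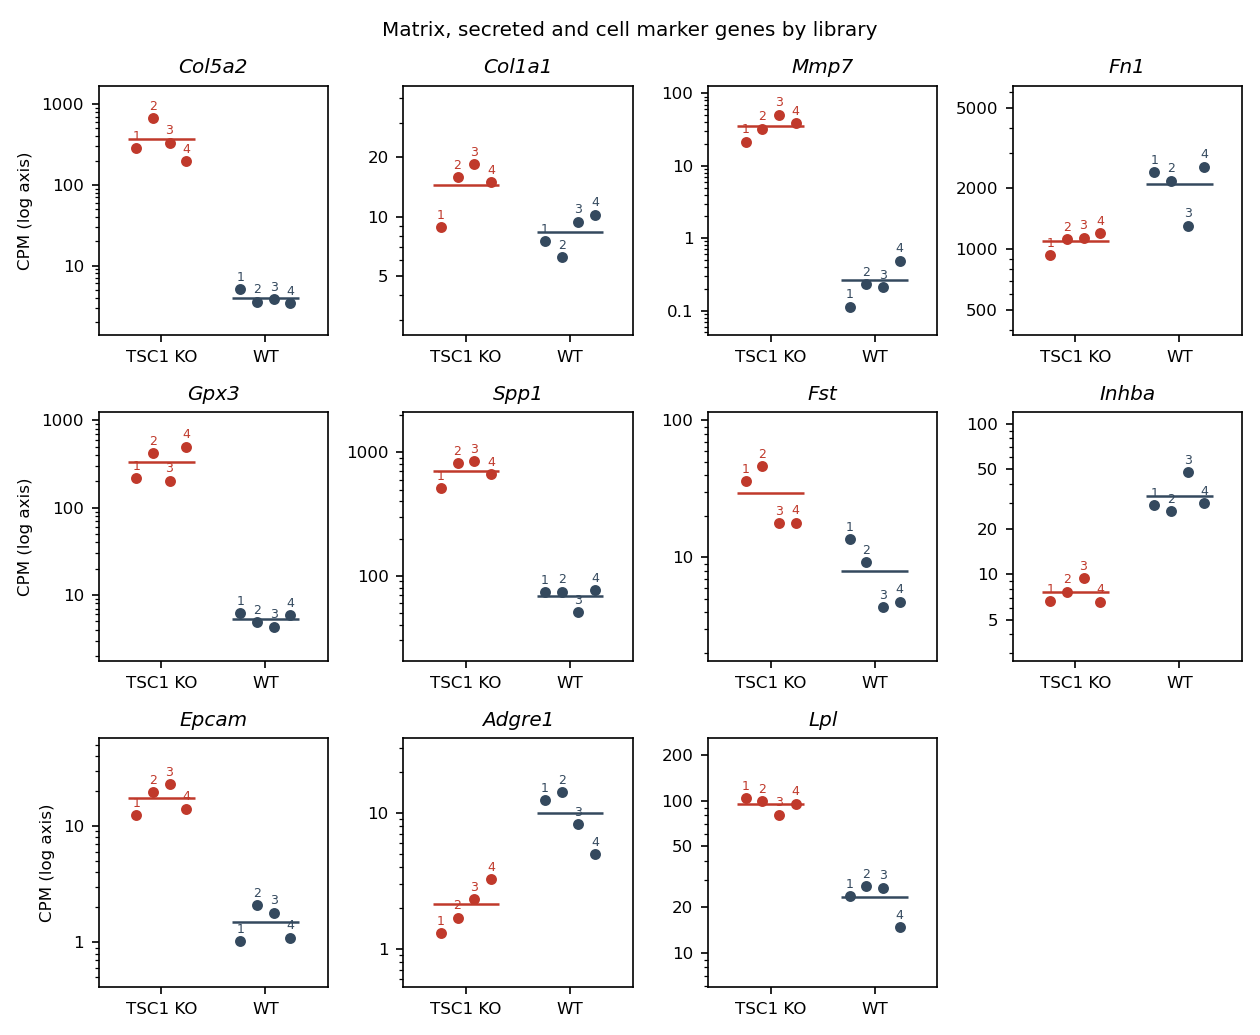
CPM per library (log axis) of Col5a2, Col1a1, Mmp7, Fn1, Gpx3, Spp1, Fst, Inhba, Epcam, Adgre1 and Lpl, with TSC1 KO libraries left of WT libraries, each point a library with its replicate number and each bar a group mean. Col5a2, Mmp7 and Gpx3 differ by well over an order of magnitude between groups, while Col1a1 overlaps, and Fn1, Inhba and Adgre1 are lower in TSC1 KO livers.

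Of 72 secreted factors tested, 12 rose (16.7%, against 8.79% of all genes) and 8 fell (11.1%, near the 7.6% of all genes). With total counts alone, 5 fell. Without TSC1 KO replicate 2 or 4 or WT replicate 1 or 2, 5 fell, and without WT replicate 4, 4 fell. Gpx3 (ENSMUSG00000018339, chr11:54902453-54910377 on the + strand), the plasma glutathione peroxidase, had 216, 424, 204 and 498 CPM in TSC1 KO livers, against 6.24, 4.85, 4.34 and 5.85 CPM in WT livers. WT libraries were uniform and TSC1 KO replicates 2 and 4 were the highest (log2FC 5.98 ± 0.34, adjusted p = 4.7e-11). Spp1 (osteopontin), also a ductular marker, had 510.1, 815, 851 and 666 CPM in TSC1 KO livers, against 73.9, 74.04, 50.4 and 76.2 CPM in WT livers (log2FC 3.37 ± 0.29, adjusted p = 6.9e-08). Wfdc12, a small whey-acidic-protein family inhibitor, ranged over 10.2 to 48.8 CPM in TSC1 KO livers and 0 to 0.809 CPM in WT livers, where 2 libraries were at 0 (log2FC 6.601 ± 0.98, adjusted p = 0.00015). Its relative Wfdc2 had 25.4 ± 5.68 CPM in TSC1 KO livers and 7.77 ± 1.72 CPM in WT livers (log2FC 1.71 ± 0.23, adjusted p = 2.8e-05).

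Activins are signalling proteins of the TGF-beta family. Inhba, the activin A subunit gene, had 6.67, 7.68, 9.47 and 6.6002 CPM in TSC1 KO livers, against 28.9, 26.2, 47.95 and 29.6 CPM in WT livers, and fell without overlap (log2FC -2.12 ± 0.26, adjusted p = 9.7e-06). Inhbc, the liver-enriched subunit gene, fell too (log2FC -1.102 ± 0.32, adjusted p = 0.025), a call lost in 5 of 8 fits without 1 library (adjusted p up to 0.09, without WT replicate 4). Fst (follistatin), which binds and neutralises activins, went up, with 35.97, 46.1, 17.7 and 17.9 CPM in TSC1 KO livers, against 13.5, 9.24, 4.34 and 4.75 CPM in WT livers (log2FC 1.89 ± 0.42, adjusted p = 0.0042). Inha, the inhibin subunit gene, rose at a level of 0.219 to 0.948 CPM in TSC1 KO livers and 0 to 0.122 CPM in WT livers (log2FC 3.43 ± 0.86, adjusted p = 0.0088). Of the genes of the TGF-beta ligands themselves, Tgfb2 rose (log2FC 2.47 ± 0.45, adjusted p = 0.00079). These ligand genes did not move as one. Another was called lower, with its call lost in 7 of 8 fits without 1 library.

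Growth and metabolic hormones were mixed. Gdf15, a stress hormone that curbs appetite, had 51.1, 66.02, 45.3 and 25.2 CPM in TSC1 KO livers, against 3.97, 28.3, 11.9 and 11.1 CPM in WT livers, and its groups overlapped (log2FC 1.77 ± 0.54, adjusted p = 0.032). Its call was lost in 6 of 8 fits without 1 library (adjusted p up to 0.093, without TSC1 KO replicate 2). Vegfb, a vascular growth factor gene, rose (log2FC 0.93 ± 0.15, adjusted p = 0.00028). Angptl8, a feeding-induced regulator of lipoprotein lipase, ranged over 13.9 to 30.6 CPM in TSC1 KO livers and 13.3 to 142 CPM in WT livers (log2FC -2.04 ± 0.54, adjusted p = 0.014). Its call was lost without WT replicate 2 (adjusted p up to 0.057). Csf1, the growth factor of macrophages, had 6.89, 7.398, 10.6 and 8.18 CPM in TSC1 KO livers, against 18.2, 16.3, 18.1 and 13.4 CPM in WT livers (log2FC -0.99 ± 0.29, adjusted p = 0.021). Its call was lost without TSC1 KO replicate 1, TSC1 KO replicate 2 or WT replicate 1 (adjusted p up to 0.065). Igf1, the main growth hormone target of the liver, did not pass (log2FC -0.056 ± 0.19, adjusted p = 0.88).

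Kupffer cell genes fell and some genes of lipid-associated macrophages rose. Of 26 Kupffer cell and macrophage markers 15 fell (57.7%, against 7.6% of all genes) and none rose. The list summed to 485 to 616 CPM in TSC1 KO libraries and 752 to 862 CPM in WT libraries. Adgre1, which encodes F4/80, had 1.31, 1.71, 2.32 and 3.25 CPM in TSC1 KO livers, against 12.4, 14.2, 8.26 and 4.99 CPM in WT livers (log2FC -2.203 ± 0.36, adjusted p = 0.00026). Cd163, the haemoglobin scavenger receptor gene, had 1.64, 0.285, 0.966 and 4.04 CPM in TSC1 KO livers, against 19.7, 14.9, 10.7 and 13.6 CPM in WT livers (log2FC -3.09 ± 0.56, adjusted p = 0.00073). Neither gene had overlapping groups, and replicate 2 (Cd163) or 1 (Adgre1) was the lowest TSC1 KO library. Clec4f, specific to Kupffer cells, fell (log2FC -1.99 ± 0.55, adjusted p = 0.019), with its call lost without TSC1 KO replicate 2, TSC1 KO replicate 3 or WT replicate 1 (adjusted p up to 0.055). The folate receptor gene Folr2 had 1 count over the TSC1 KO libraries and 22 over the WT libraries, 25.2-fold lower with a 95% exact counting interval of 4.07 to 1039. Csf1r, the receptor gene for Csf1, fell (log2FC -1.05 ± 0.25, adjusted p = 0.0069).

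Of 14 genes of lipid- and scar-associated macrophages 6 rose (42.9%, against 8.79% of all genes), but the defining ones did not pass. Without TSC1 KO replicate 2 or 3 or WT replicate 1, 3 rose. Trem2 had 0.765 to 1.71 CPM in TSC1 KO livers and 0.231 to 1.34 CPM in WT livers (log2FC 0.67 ± 0.48, adjusted p = 0.37). Gpnmb, also a lysosomal stress gene, was below 1 CPM in all 8 libraries (log2FC 1.13 ± 1.02, adjusted p = 0.49). Lpl, lipoprotein lipase, which other cells express too, had 104, 99.2, 81.2 and 95.5 CPM in TSC1 KO livers, against 23.6, 27.3, 26.8 and 14.7 CPM in WT livers (log2FC 2.04 ± 0.40, adjusted p = 0.0018). In the lymphocyte list 1 of 20 tested members rose and 1 fell (5.0% each way, against 8.79% and 7.6% of all genes), and 2 fell without WT replicate 4. Cd4, the T helper cell coreceptor gene, fell (log2FC -1.77 ± 0.42, adjusted p = 0.0063). Ighm, the heavy chain of immunoglobulin M, rose, with 88.99, 8.25, 43.1 and 43.2 CPM in TSC1 KO livers, against 8.74, 8.09, 8.89 and 9.38 CPM in WT livers (log2FC 2.38 ± 0.60, adjusted p = 0.01). TSC1 KO replicate 2 lay inside its WT range. Of 20 sinusoidal endothelial genes 1 rose (5%) and 2 fell (10%), beside 8.79% and 7.6% of all genes, with a median change of -0.40. The scavenger receptor gene Stab2 rose without overlap (log2FC 0.95 ± 0.19, adjusted p = 0.0014), while its relative Stab1 (log2FC -0.88 ± 0.19, adjusted p = 0.0031) and the secreted nuclease gene Dnase1l3 (log2FC -1.17 ± 0.34, adjusted p = 0.021) fell. The call of Dnase1l3 was lost in 4 of 8 fits without 1 library (adjusted p up to 0.067, without TSC1 KO replicate 2). Without WT replicate 4, 4 of these endothelial genes fell, and 1 fell without TSC1 KO replicate 2 or 3 or WT replicate 1 or 3. The part of these cells in the other changes was not tested.

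The other genes among the 15 largest increases without overlap follow. Cyp46a1, the cholesterol 24-hydroxylase of neurons and a member of the cholesterol disposal list, had 55.4, 44.4, 101 and 102 CPM in TSC1 KO livers, against 1.25, 1.16, 1.91 and 2.56 CPM in WT livers (log2FC 5.46 ± 0.64, adjusted p = 1.3e-05). Clec2h, a lectin-like ligand gene, had 157, 173, 177 and 207 CPM in TSC1 KO livers, against 4.99, 1.39, 10.7 and 2.31 CPM in WT livers (log2FC 5.18 ± 0.65, adjusted p = 3.3e-05). Renbp, which epimerises N-acetylglucosamine, had tight groups, with 51.1, 68.9, 45.7 and 55.2 CPM in TSC1 KO livers, against 2.72, 2.19, 2.96 and 2.801 CPM in WT livers (log2FC 4.36 ± 0.24, adjusted p = 4.7e-11). Cib3, a calcium-binding protein gene (log2FC 5.05 ± 0.53, adjusted p = 3.2e-06), and Cyfip2, a member of the actin-regulating WAVE complex (log2FC 4.76 ± 0.40, adjusted p = 6.9e-08), rose likewise. So did Ntrk2, the receptor of brain-derived neurotrophic factor (log2FC 4.500 ± 0.43, adjusted p = 5.1e-07). Pde6c, a phosphodiesterase gene of cone photoreceptors (log2FC 5.54 ± 0.92, adjusted p = 0.00041), Slc35f2 (log2FC 4.32 ± 0.43, adjusted p = 6.1e-07) and the death receptor gene Tnfrsf25 (log2FC 4.201 ± 0.58, adjusted p = 5.4e-05) completed the increases named by size. Hamp2, a near copy of the hepcidin gene whose reads the counting could share with Hamp, had 69.1 ± 23.2 CPM in TSC1 KO livers and 1.81 ± 1.03 CPM in WT livers (log2FC 5.24 ± 0.95, adjusted p = 0.0011).

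Among the 15 largest decreases without overlap, those outside the acute-phase and ER lists follow. Slc22a7, the organic anion transporter OAT2, had 2.73, 0.854, 1.35 and 2.76 CPM in TSC1 KO livers, against 102, 127, 30.1 and 56.999 CPM in WT livers (log2FC -5.37 ± 0.50, adjusted p = 4e-07). Slc13a5, the citrate importer, had 0.765, 0.569, 0.5799 and 0.887 CPM in TSC1 KO livers, against 13.4, 8.78, 2.12 and 44.6 CPM in WT livers (log2FC -4.600 ± 0.77, adjusted p = 0.0004). Moxd1, a monooxygenase, ranged over 0.109 to 3.51 CPM in TSC1 KO livers and 39.3 to 523 CPM in WT livers, with WT replicate 3 lowest (log2FC -7.698 ± 1.01, adjusted p = 5.8e-05). Dct, a melanin enzyme gene (log2FC -3.98 ± 0.56, adjusted p = 5.8e-05), and Capn8, a calpain gene (log2FC -3.52 ± 0.43, adjusted p = 1.3e-05), fell without overlap. The cytochrome P450 genes Cyp2c40 (log2FC -4.14 ± 1.102, adjusted p = 0.014) and Cyp2c69 (log2FC -6.204 ± 1.44, adjusted p = 0.0061) belong to a cluster of near-identical genes, and the split of reads among them is uncertain. Tmc5 had 3 counts over the TSC1 KO libraries and 172 over the WT libraries, 65.6-fold lower with an interval of 22.1 to 321. By library it had 0, 0.285, 0 and 0 CPM in TSC1 KO livers and 6.24, 6.81, 0.318 and 6.70 CPM in WT livers. WT replicate 3 thus lay just above TSC1 KO replicate 2 (log2FC -5.89 ± 1.30, adjusted p = 0.004). Of the chemokines, Cxcl1, which draws neutrophils, had 11.2, 18.5, 9.66 and 19.3 CPM in TSC1 KO livers, against 382, 266, 92.6 and 134 CPM in WT livers (log2FC -3.896 ± 0.84, adjusted p = 0.0038). Cxcl14 fell as well (log2FC -3.66 ± 0.78, adjusted p = 0.0034).

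TSC1 KO was set directly against Atg5 KO, whose deleted gene autophagosome formation needs, to see where the TSC1 KO profile differs. Of the 15851 genes 4660 were called (29.4%), 2004 higher in TSC1 KO livers (12.6%) and 2656 lower (16.8%). Of 42 autophagy genes 16 were higher in TSC1 KO livers and 0 lower. Of 46 hydrolases 14 were higher and 5 lower. Neu1 had 107 ± 10.7 CPM in TSC1 KO livers and 39.8 ± 4.16 CPM in Atg5 KO livers (log2FC 1.42 ± 0.10, adjusted p = 4.6e-09). Gabarapl1 had 1104 ± 171 CPM in TSC1 KO livers and 302 ± 77.5 CPM in Atg5 KO livers (log2FC 1.87 ± 0.20, adjusted p = 1.1e-06). Arsa (log2FC 1.19 ± 0.18, adjusted p = 4.4e-05), Ctsl (log2FC 1.13 ± 0.18, adjusted p = 7.2e-05) and Mcoln1 (log2FC 0.82 ± 0.11, adjusted p = 7.3e-06) were also higher. Rragd, in contrast, was high in both, at 40.5 ± 9.63 CPM in TSC1 KO livers and 49.3 ± 23.2 CPM in Atg5 KO livers, and the difference did not pass (log2FC -0.28 ± 0.30, adjusted p = 0.51). Its Atg5 KO libraries had 59.2, 15.2, 55.6 and 67.1 CPM. Replicate 2 of them lay below every TSC1 KO library and the others above every TSC1 KO library.

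Of 27 collagen genes 18 were lower in TSC1 KO livers than in Atg5 KO livers and 2 higher, beside 16.8% and 12.6% of all genes. Col5a2 had 371 ± 208 CPM in TSC1 KO livers and 13.6 ± 4.69 CPM in Atg5 KO livers (log2FC 4.77 ± 0.45, adjusted p = 3.7e-07). Col1a1 had 14.5 ± 4.06 CPM in TSC1 KO livers and 70.1 ± 24.2 CPM in Atg5 KO livers (log2FC -2.27 ± 0.34, adjusted p = 4.1e-05). Stellate cell markers were lower in TSC1 KO livers for 9 of 19 members, against 16.8% of all genes. Gpx3 was higher in TSC1 KO livers (log2FC 3.61 ± 0.29, adjusted p = 3.6e-08), as were Cyp46a1 (log2FC 5.66 ± 0.63, adjusted p = 2.4e-06), Wfdc12 (log2FC 5.12 ± 0.80, adjusted p = 9.1e-05) and the imprinted long RNA Rian (log2FC 5.13 ± 0.70, adjusted p = 2.2e-05). Spp1 had 710.5 ± 156 CPM in TSC1 KO livers and 708 ± 286 CPM in Atg5 KO livers and did not pass the test (log2FC 0.0044 ± 0.26, adjusted p = 0.99), the sign of its fold change differing between processing settings. Of 32 tested acute-phase genes 3 were higher and 5 lower in TSC1 KO livers, beside 12.6% and 16.8% of all genes. Of 25 ER chaperone genes 1 was higher and 2 lower, so most members of both lists did not pass the direct test. The acute-phase list summed to 32607 to 51969 CPM in Atg5 KO and 36605 to 46694 CPM in TSC1 KO libraries. WT libraries had 59477 to 242481 CPM. The ER chaperone list summed to 6363 to 9718 CPM in Atg5 KO and 7157 to 9068 CPM in TSC1 KO libraries. Its WT libraries had 14121 to 16309 CPM. Both lists were thus low in both deletions beside WT. Genes far lower in TSC1 KO livers than in Atg5 KO livers were Slc7a11, the cystine importer (log2FC -8.19 ± 0.75, adjusted p = 4e-07), the cytochrome P450 gene Cyp2a4 (log2FC -9.06 ± 1.22, adjusted p = 2.2e-05) and Tekt5 (log2FC -8.63 ± 0.92, adjusted p = 1.7e-06). Apela had 1 count in TSC1 KO libraries and 2987 in Atg5 KO libraries, 2443-fold lower with an interval of 438 to 96520. Acod1 had 2 counts in TSC1 KO libraries and 1482 in Atg5 KO libraries, 606-fold lower with an interval of 167 to 5009. Slc7a11, Cyp2a4, Tekt5, Apela and Acod1 were low in WT livers too. Their WT means were 0.258, 1.64, 0.0832, 0 and 0.136 CPM in that order, and none was called in TSC1 KO versus WT.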

How the data were processed

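Livers were snap frozen, RNA was extracted with Trizol, and stranded polyadenylated libraries were read as single 75 bp reads, per the labels' protocols. The authors deposited 1 table of raw read counts per gene. Trimmomatic 0.36, HISAT2 2.1.0, HTSeq and GRCm38 are named in the submitters' processing notes; whether strand was used in counting is not stated, so reads of overlapping genes on opposite strands may not have been separated. Of 33019 gene identifiers, 32938 took a symbol and coordinates from GENCODE M21 (GRCm38), and 81 had none. Total counts were 10494080 to 13057467 over the series. No pair of libraries within a group agreed within sampling noise, and each was treated as 1 sample. Separate libraries of the same animal could also differ by more than that noise, so this does not show which animals gave them.

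The counts of all 24 libraries were fitted with edgeR 4.0.16 in R 4.3.3 (filterByExpr, TMM, robust quasi-likelihood test, 1 mean for each of 6 genotypes) and TSC1 KO was compared with WT and with Atg5 KO. Alternatives were DESeq2 1.42.0, its size factors, total counts alone, no filter, only the 2 groups compared, a replicate block and leaving out libraries. On simulated data for TSC1 KO versus WT (13769 genes), 28% of genes changed 1.5-fold were called, 62% at 2-fold, 88% at 4-fold and 98% at 8-fold, with 6 of 13569 unchanged genes called. A ratio against a group with 1 to 3 counts has an exact 95% counting interval, which covers counting error only. Promoters are from RefSeq.

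The gene lists were chosen with earlier results of these data known. Named genes were Tsc1 and Tsc2, the 15 largest called changes each way whose groups did not overlap and whose higher group averaged 5 CPM or more, from each list its key members, up to 8 of smallest adjusted p and up to 4 of highest CPM, and the 6 largest each way against Atg5 KO. Rheb, Mtor, Rptor, Pla2g15, Atg9a, Canx, Pdia6, Cd44, Inhbc, Inha and Csf1 fall outside that rule and were named after their values were seen. Not every gene chosen this way is reported here.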

Additional observations from a re-analysis of the deposited data

Results flagged for a closer look

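Within each group of 4 libraries, the gap between the most extreme library and its nearest neighbour was divided by the range of the group, for every gene named against WT. Of 376 groups, 29 had a ratio above Dixon's 95% critical value for 4 samples, and chance gives about 1 in 20. WT replicate 4 was the highest library for 6 genes and the lowest for 1, and WT replicate 3 the highest for 5 and the lowest for 2.

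Acute-phase genes stood apart in WT replicate 4. Saa3 was at 1035 CPM there and at 8.04 to 46.5 CPM in the other WT libraries (ratio 0.963), Lcn2 at 2844 CPM against 21.1 to 469 CPM (0.841) and Saa2 at 35333 CPM against 562 to 6400 CPM (0.832). Hamp was highest in WT replicate 1 (0.846). The same replicate 4 was highest for Gpnmb (0.93), Tnfrsf25 (0.851) and Ctsz (0.848), and lowest for Lamp2 (0.876).

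WT replicate 3 was highest for the collagen genes Col4a4 (0.933) and Col1a2 (0.882), for Ero1lb (0.9), Gabarapl1 (0.868) and Inhba (0.845). It was lowest for Spp1, with 50.4 CPM against 73.9 to 76.2 CPM in the other WT libraries (0.908), and for Tmc5, with 0.318 CPM against 6.24 to 6.81 CPM (0.911). WT replicate 2 was highest for Wfdc12 (0.86) and Tsc2 (0.83).

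Among TSC1 KO libraries, replicate 1 was highest for Ftl1 (0.856), Ctsd (0.847) and Pla2g15 (0.838) and lowest for Cd63 (0.846) and Lamb2 (0.83). Replicate 4 was highest for Pde6c (0.944) and Tsc2 (0.872) and lowest for Canx (0.85). Replicate 2 was lowest for Slc36a1 (0.874), and replicate 3 for Dct (0.91). Tmc5 in replicate 2 and Folr2 in replicate 3 had the ratio 1 because the other TSC1 KO libraries had no counts of these genes.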

How the results depend on the processing

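With TSC1 KO against WT, 2598 genes were called, against 2732 with DESeq2, 2543 with DESeq2 size factors, 2479 with total counts alone, 1782 with no filter and 2793 with only the 2 groups fitted, and 1724 to 2272 without 1 library. Higher calls numbered 1393, 956 to 1354 without 1 library and 866 without both WT replicates 3 and 4, an alternative chosen after seeing the data. Lower calls numbered 1205, 695 with no filter, 628 with total counts alone and 647 to 1121 without 1 library. For the lists that open the comparison, these counts moved by over 1.5 times. V-ATPase members that rose numbered 11 with total counts alone (6 as reported). Without both WT replicates 3 and 4, 5 lysosomal membrane genes rose (8), 7 secreted factors rose (12) and 3 secreted factors fell (8); secreted factors that fell also numbered 5 with no filter, 5 with total counts alone and 4 to 7 without 1 library. Without 1 library, 13 to 25 acute-phase genes (23), 3 to 7 of their receptors and regulators (5, and 3 with no filter) and 9 to 16 translocon genes (15) fell, the 13 and the 9 without WT replicate 4, and 5 to 8 ATF4 targets rose (8). Of 69 other list counts 48 moved by over 1.5 times under at least 1 alternative. The causes were not tested. Whether replicate numbers pair the libraries was not settled. Same-numbered libraries had weak, positive correlations of deviations of 0.02 to 0.07. TSC1 KO replicates 2, 3 and 4 correlated best with the same-numbered WT library, and TSC1 KO replicate 1 with WT replicate 4 (0.036). With a replicate block 2469 genes were called, and 19 acute-phase genes fell. TSC1 KO against Atg5 KO gave 4660 calls, 4553 with the block, and every alternative run stayed within 1.5 times. Of 2812 values for 188 genes named against WT, 2599 kept their direction and side of the threshold, 192 lost the call, 8 gained one and 13 changed sign; of 252 against Atg5 KO, 245 kept both, 1 gained a call and 6 changed sign. The genes that changed sign were not called as reported. Without 1 library, log2 fold changes against WT ranged over -0.070 to 0.45 for Acta2, -0.47 to 0.99 for Asns, -0.079 to 0.30 for Map1lc3b, -0.045 to 0.25 for Tfeb and -0.15 to 0.097 for Igf1. With total counts alone Igf1 was at 0.079 and Rheb at 0.012, and without both WT replicates 3 and 4 Igf1 was at 0.10. Spp1 against Atg5 KO was at -0.0025 with only the 2 groups fitted, -0.27 with total counts alone and -0.21 to 0.20 without 1 library.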

Other observations

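Metabolic and other gene groups outside the comparisons above are given here as values, on the same scale and with the same test. Beside each count, 8.79% of all genes rose and 7.6% fell. Lipid and sugar metabolism had few calls. Of 23 lipogenic genes 1 rose and 1 fell (4.35% each way), and 4 fell without TSC1 KO replicate 1 or WT replicate 3 and 2 without WT replicate 4. The member that rose, the polyunsaturated fatty acid elongase gene Elovl5, had 654 ± 114 CPM in TSC1 KO livers and 301 ± 90.3 CPM in WT livers (log2FC 1.12 ± 0.27, adjusted p = 0.0069), and the one that fell, Acaca, encodes the acetyl-CoA carboxylase of fatty acid synthesis (log2FC -0.65 ± 0.13, adjusted p = 0.0018). Of 20 genes of gluconeogenesis and amino acid breakdown only the coactivator gene Ppargc1a passed (1 more rose without WT replicate 4, and 1 fell without WT replicate 3), with 24.4, 24.9, 44.3 and 46.3 CPM in TSC1 KO livers, against 11.6, 10.3, 8.998 and 7.67 CPM in WT livers (log2FC 1.86 ± 0.27, adjusted p = 8.4e-05). In the glycolysis list the lactate dehydrogenase gene Ldha fell (log2FC -0.90 ± 0.22, adjusted p = 0.0085) and the phosphofructokinase gene Pfkp rose (log2FC 1.24 ± 0.25, adjusted p = 0.0016). Of 30 genes of oxidative phosphorylation 5 rose (16.7%) and none fell, and with total counts alone 19 rose. Without WT replicate 2 or 3, 1 rose, and 2 or 3 rose without WT replicate 1 or any 1 TSC1 KO library. Of 78 cytosolic ribosomal protein genes 6 fell (7.69%, near the 7.6% of all genes) and none rose. Their median change of -0.17 came to -0.0042 without WT replicate 4, where 1 fell. Without WT replicate 1 or any 1 TSC1 KO library, 2 or 3 fell.

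Iron storage and detoxification genes follow. Of 33 targets of NRF2, the antioxidant transcription factor, 7 rose (21.2%, against 8.79% of all genes) and 1 fell (3.03%, against 7.6%). Without TSC1 KO replicate 1 or WT replicate 4, 4 rose, and 3 rose without WT replicate 2. None fell without WT replicate 3 or TSC1 KO replicate 2, 3 or 4. The ferritin light chain gene Ftl1 had 2324, 1639, 1707 and 1603 CPM in TSC1 KO livers, against 800.2, 728, 916 and 736 CPM in WT livers (log2FC 1.19 ± 0.25, adjusted p = 0.0023). Near-identical ferritin pseudogenes can share its reads. The glutathione transferase gene Gsta4 rose as well (log2FC 0.94 ± 0.26, adjusted p = 0.016), with its call lost without TSC1 KO replicate 1 (adjusted p up to 0.067). Of 24 interferon-stimulated genes 1 rose (4.17%) and 3 fell (12.5%), and of 19 tested chemokines and cytokines 2 rose (10.5%) and 4 fell (21.1%). Without TSC1 KO replicate 1, 2 or 3 or WT replicate 1 or 2, 1 interferon-stimulated gene fell. Without TSC1 KO replicate 2 or WT replicate 2 or 3, 1 chemokine or cytokine gene rose. Of 30 cell cycle genes 3 rose (10%, near the 8.79% of all genes). Without TSC1 KO replicate 2 or WT replicate 1, 1 rose, and 0 rose without TSC1 KO replicate 4 or WT replicate 2. Among male-biased liver genes 1 of 19 fell (5.26%, and 0 without TSC1 KO replicate 1 or 4). Among female-biased ones 3 of 14 rose (21.4%) and 1 fell (7.14%). Immediate-early, heat-shock and blood genes fell in 4 of 13 members (30.8%) and in 2 without TSC1 KO replicate 2 or WT replicate 2. The list summed to 257 to 369 CPM in TSC1 KO libraries and 408 to 849.7 CPM in WT libraries.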
